A study of Caenorhabditis elegans with 2 samples.

Results

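Autosomal promoter peaks of ELT-1 are binding sites of the GATA factor ELT-1 that lay close to the start of a protein-coding gene on chromosomes I to V of Caenorhabditis elegans. They were chosen by position alone: the summit of a peak had to lie from 1000 bp upstream to 200 bp downstream of the annotated 5′ end of a protein-coding transcript. This promoter window held 475 of the 1400 peaks of the thresholded list (33.9%), or 45.5% of its 1044 autosomal peaks. The other 569 autosomal peaks and the 143 peaks that met the same rule on X served for comparison.

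The peaks came from chromatin immunoprecipitation and sequencing of mixed-stage hermaphrodite embryos of strain OP354, genotype unc-119(tm4063) III; wgIs354, in 1 group of 2 biological replicates. The integrated transgene wgIs354 makes ELT-1 with GFP and FLAG at its C terminus, and the descriptions name anti-GFP for the pull-down, although the antibody field reads elt-1. Both replicates came from the same transgenic line, there was no group without the tagged protein, and a shared control set stood behind both peak calls. Because whole embryos of many stages were used, a peak does not say in which cells or at which stage the site was bound, and extra elt-1 sequence carried by the transgene cannot be told apart from binding at that locus.

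GATA factors are zinc finger proteins that bind short DNA sites with GATA at their core. In the worm embryo ELT-1 acts at the top of the gene network that makes the epidermis, the single cell layer that secretes the collagen cuticle, and other GATA factors act after it in the same layer or direct other tissues such as the intestine. A promoter bound by such a factor can differ from a distant site in having elements for the general transcription machinery nearby.

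A GATA site was counted where AGATAA or AGATAG or TGATAA or TGATAG was found on either strand within 100 bp of a summit, a window of 201 bp. To show what these windows look like, the sequences of the 4 strongest promoter peaks with a GATA site that lay on chromosomes II to V and met no exon are given, from the RefSeq WBcel235 (ce11) genome, plus strand, with each GATA site in capitals on whichever strand it was read (TTATCT and CTATCT are AGATAA and AGATAG read on the minus strand, and TTATCA and CTATCA are TGATAA and TGATAG).
elt-1 intron (chrIV:9615617-9615817): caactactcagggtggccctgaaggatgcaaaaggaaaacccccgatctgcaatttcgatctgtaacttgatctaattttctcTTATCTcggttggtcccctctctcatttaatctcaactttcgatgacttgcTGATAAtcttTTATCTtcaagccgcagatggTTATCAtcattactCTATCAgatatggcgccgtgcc
elt-1 upstream (chrIV:9614129-9614329): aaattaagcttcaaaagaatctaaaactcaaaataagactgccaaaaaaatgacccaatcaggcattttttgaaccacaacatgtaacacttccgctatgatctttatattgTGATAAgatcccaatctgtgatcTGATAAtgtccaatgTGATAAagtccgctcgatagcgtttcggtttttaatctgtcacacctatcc
phdh-1 (chrII:13638624-13638824): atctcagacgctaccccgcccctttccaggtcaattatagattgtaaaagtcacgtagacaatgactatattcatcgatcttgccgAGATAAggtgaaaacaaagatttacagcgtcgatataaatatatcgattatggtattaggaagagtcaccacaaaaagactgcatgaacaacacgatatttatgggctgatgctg
vgln-1 and C08H9.16 (chrII:9891845-9892045): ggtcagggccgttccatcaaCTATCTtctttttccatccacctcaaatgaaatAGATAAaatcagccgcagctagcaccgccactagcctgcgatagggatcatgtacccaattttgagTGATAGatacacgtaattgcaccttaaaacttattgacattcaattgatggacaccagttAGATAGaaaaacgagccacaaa
The strongest of them held 5 sites, most of them to the right of its centre, and the phdh-1 window held 1 site near its centre. The strongest windows with no GATA site that held CGTCTC, a 6-base sequence that earlier work on these data had found at many summits, are shown by the same choice with CGTCTC or its complement GAGACG in capitals. They are not free of related sequence: the T19B10.2 and dpy-10 windows hold CGATAA, which was not counted as a GATA site.
clp-4 (chrIII:1818373-1818573): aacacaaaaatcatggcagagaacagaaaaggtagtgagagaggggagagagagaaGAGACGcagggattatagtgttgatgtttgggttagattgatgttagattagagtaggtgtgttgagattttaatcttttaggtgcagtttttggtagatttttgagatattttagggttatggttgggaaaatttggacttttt
nrde-4 (chrIV:7654459-7654659): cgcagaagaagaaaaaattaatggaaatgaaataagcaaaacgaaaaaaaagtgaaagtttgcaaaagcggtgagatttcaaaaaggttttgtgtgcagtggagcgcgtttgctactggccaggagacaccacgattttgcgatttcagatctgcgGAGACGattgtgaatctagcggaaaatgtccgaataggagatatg
T19B10.2 (chrV:11221054-11221254): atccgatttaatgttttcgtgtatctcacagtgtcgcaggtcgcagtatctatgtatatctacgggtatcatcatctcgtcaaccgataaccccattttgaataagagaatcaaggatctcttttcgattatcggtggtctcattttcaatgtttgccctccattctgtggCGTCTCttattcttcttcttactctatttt
dpy-10 (chrII:6712315-6712515): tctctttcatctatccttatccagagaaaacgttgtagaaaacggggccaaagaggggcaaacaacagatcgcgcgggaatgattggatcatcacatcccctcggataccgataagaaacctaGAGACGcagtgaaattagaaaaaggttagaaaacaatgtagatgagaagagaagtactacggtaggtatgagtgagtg
In the clp-4 and dpy-10 windows the capitals run on into the longer sequence agacgcag, which lay at 10.7% of promoter peaks (51 of 475) and in 0.876% of windows 1000 bp to either side of them (8 of 913). It was not particular to promoter peaks, with 8.96% of other autosomal peaks, 7.69% of X promoter peaks and 2.28% of autosomal promoters with no peak. The sequence was chosen with earlier results of these data known, so its excess over windows with no peak is no new support.

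Promoter peaks held GATA sites more often than promoters without a peak, and less often than peaks elsewhere on the autosomes. A site was found at 272 of the 475 promoter peaks (57.3%, 95% Wilson interval 52.8 to 61.6%) and at 398 of the 569 other autosomal peaks (69.9%, 66.1 to 73.6%). The odds ratio was 0.576 and the adjusted p 7.37e-05 (two-sided Fisher's exact test, adjusted over 9 tests by the Benjamini-Hochberg procedure). Peaks are not replicates of an experiment, so the p-values and intervals given here are for counting error alone. With the 1400 strongest relaxed peaks of each replicate in place of the thresholded list, the shares were 57.7% at promoter peaks and 69.5% at other autosomal peaks in replicate 1, and 55.4% and 64.9% in replicate 2. Among 16682 autosomal promoters with no peak, 38.9% of windows centred 233 bp upstream of the 5′ end, the median place of the summits, held a site (odds ratio 2.11, adjusted exact p = 1.78e-14). Windows 1000 bp to either side of the promoter peaks were at 38.0% (347 of 913). The median share of G and C was 40.8% at promoter peaks and at other autosomal peaks, 33.3% in promoters with no peak and 37.3% in the flanks, and the part of base composition in these differences was not tested. Among the 50% of peaks with the highest signal the gap between promoter peaks and other autosomal peaks was smaller and not called (153 of 230 and 208 of 282, odds ratio 0.707, adjusted exact p = 0.24). X promoter peaks held a site in 65.0% of cases (93 of 143). The difference of the autosomal promoter peaks from them was not called (odds ratio 0.72, adjusted exact p = 0.181), which does not show that the shares are alike.

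**Figure D1:**
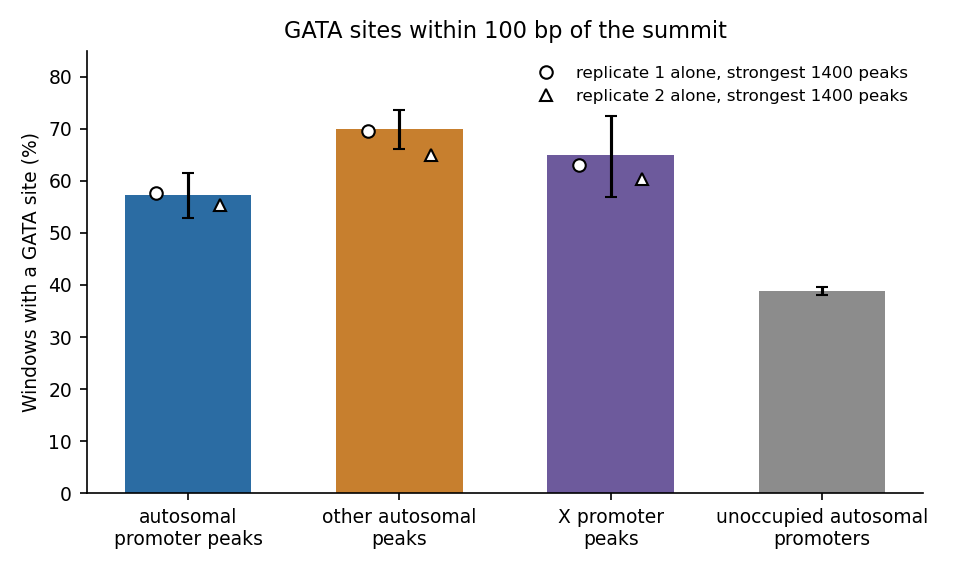
Share of windows within 100 bp of the summit that held a GATA site, in percent, for the 475 autosomal promoter peaks, the 569 other autosomal peaks, the 143 X promoter peaks and 16682 unoccupied autosomal promoters. Bars are shares of the thresholded list with 95% Wilson intervals, open symbols are the strongest 1400 peaks of each replicate alone; in both replicates the autosomal promoter peaks (57.7% and 55.4%) lie below the other autosomal peaks (69.5% and 64.9%).

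The gap to the other autosomal peaks was widest for AGATAA, which was found at 35.4% of promoter peaks and 44.3% of other autosomal peaks. AGATAG was at 14.7% and 17.8%. TGATAA was found at 22.7% of promoter peaks and 25% of the others, against 20.5% of promoters with no peak, and TGATAG at 8.63% and 9.31%, against 7.27%. The related form CGATAA stood at 18.1% of promoter peaks and 16.9% of the other peaks, against 9.78% of promoters with no peak. With CGATAA and CGATAG counted too, the shares were 68.8% at promoter peaks, 80.5% at other autosomal peaks and 46.8% at promoters with no peak. Of the 48 6-base sequences that contain GATA, 30 were less frequent at promoter peaks than at other autosomal peaks, 3 of them at an unadjusted exact p under 0.05 and 0 after adjustment over all 2080. CGTCTC lay at 18.7% of promoter peaks (89 of 475) and 22.7% of other autosomal peaks (129 of 569), a difference that was not called (odds ratio 0.786, adjusted exact p = 0.19). Both shares were above the 6.47% of promoters with no peak. CGTCTC was chosen because earlier work on these data had found it at many summits, so that excess is no new support. Among the promoter peaks, CGTCTC was about as frequent without a GATA site (17.7%) as with one (19.5%), and 167 of the 475 held neither sequence.

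All 6-base sequences were compared between promoter peaks and other autosomal peaks with the same exact test. Of 2080 sequences, 15 (0.721%) were called more frequent at promoter peaks and 2 (0.0962%) less frequent at an adjusted p under 0.05. The total of 17 was not stable, with 36 when the promoter was narrowed to 500 bp before and 100 bp after the 5′ end, 4 in replicate 2 alone, 3 within 50 bp of the summit and 0 among the 50% of peaks with the highest signal. The sequence with the lowest p was CGCTCC, found at 8.42% of promoter peaks and 2.28% of the other peaks (odds ratio 3.93, adjusted exact p = 0.0121). CCGCCC followed with 12.8% and 5.10% (2.74, adjusted exact p = 0.0121), AAATAA with 36.4% and 24.1% (1.81, adjusted exact p = 0.0121), CACGCG with 8.84% and 2.81% (3.35, adjusted exact p = 0.0163) and CCGCAC with 10.3% and 3.87% (2.86, adjusted exact p = 0.0163). The 2 called in the other direction were ATCACC, at 4.84% of promoter peaks and 11.4% of the others, and CTAATC, at 8.63% and 16.2%. Next in that direction, AGATCC and CATGTC were each at 5.47% and 11.6%, and CCCCCC was at 4.21% and 9.31%, none of them called (adjusted exact p = 0.0622 or more). Of the 5 leading sequences CGCTCC was at 3.81% of promoters with no peak, CCGCCC at 4.22%, CACGCG at 3.25% and CCGCAC at 2.99%, whereas AAATAA was at 48.4% there. CGCTCC lay at 14.8% of promoter peaks without a GATA site and 3.68% of those with one, and CCGCCC at 14.8% and 11.4%. The directions of the 5 leading sequences were the same in each replicate alone, with CCGCCC at 11.5% of promoter peaks and 6.48% of other autosomal peaks in replicate 1, and at 12.5% and 5.55% in replicate 2. These sequences were picked from the thresholded list, which was derived from the same replicates, so the agreement is not independent support.

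The signal of a peak, the peak caller's own value, ran from 27.8 to 823 at promoter peaks with a median of 38.9, and from 27.8 to 269.7 with a median of 39.4 at the other autosomal peaks. Signal above the median of the whole list was found for 48.4% of promoter peaks and 49.6% of the others (odds ratio 0.955, adjusted exact p = 0.85). Among the promoter peaks, those with more signal had a GATA site more often. In 5 classes of 95 peaks by signal, lowest first, the share with a GATA site was 46.3%, 51.6%, 52.6%, 57.9% and 77.9%. The highest class, at 58.5 and above, differed from the lowest, up to 30.3, with an odds ratio of 4.08 (adjusted exact p = 5.31e-05). Within the stronger 50% of the list the same comparison, with 46 peaks in each class, was not called (2.31, adjusted exact p = 0.252). Ranked by the signal of 1 replicate alone, the highest and the lowest class stood at 80.2% and 51.6% in replicate 1, and at 73.1% and 39.1% in replicate 2. The median signal was 35.8 for the 203 promoter peaks with no site, 39.3 for the 142 with 1 site, 43.2 for the 74 with 2 sites, 54.6 for the 42 with 3 sites and 50.2 for the 14 with 4 to 6 sites. CGTCTC lay at 22.1% of the highest and 17.9% of the lowest class, which was not tested.

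**Figure D2:**
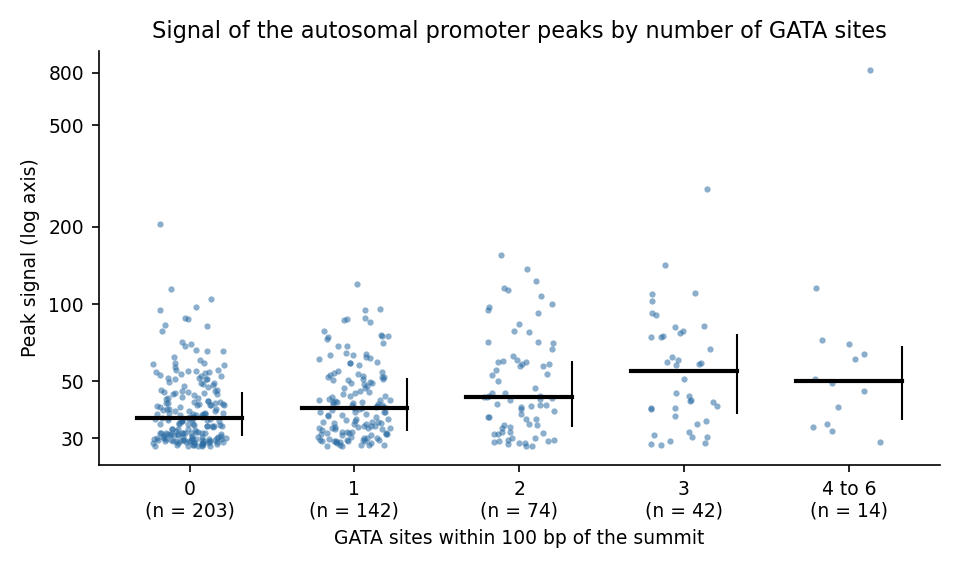
Signal of each of the 475 autosomal promoter peaks (log axis) by the number of GATA sites within 100 bp of its summit; points are peaks, spread sideways at random, thick lines are medians and thin vertical lines run from the lower to the upper quartile. The median is 35.8 with no site and 54.6 with 3 sites, and the highest point is the intronic peak of elt-1 at 823.

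Sites were then measured from the summits. The median distance from summit to the nearest of the 477 sites was 21.5 bp, and it was 25 bp or less in 154 of the 272 windows with a site. At least 2 sites were present at 27.4% of promoter peaks (130 of 475) and 34.1% of other autosomal peaks (194 of 569). Of the sites at promoter peaks, 39.0% (186 of 477, Wilson interval 34.7 to 43.4%) read GATA on the strand of the nearest gene, close to the 42.3% in promoters with no peak.

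The 475 peaks marked 560 of 17242 autosomal protein-coding genes (3.25%), called occupied where a summit lay in their promoter window, so that a peak between a pair of genes can mark both. Leading them was elt-1 itself, with 4 summits in its promoter windows. Its intronic summit at position 9615717 of chromosome IV had a signal of 823, with 544 in replicate 1 and 276 in replicate 2, and was the strongest peak of either replicate. The summit at 9614229 upstream of elt-1 had 281, with 193 in replicate 1 and 89.9 in replicate 2, and held 3 GATA sites. A summit at 9619015, in an intron, had 205, with 152 and 59.4, and held no site. The last, at 9614430, reached 28.2 and shared its relaxed peaks with the summit at 9614229, so it has no replicate values of its own.

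Away from elt-1, the strongest promoter peaks lay at genes of several kinds. dpy-14, which encodes a cuticle collagen, had a signal of 155 at a summit 126 bp upstream of its 5′ end, with 112 in replicate 1 and 51.9 in replicate 2, 2 GATA sites and CGTCTC. pmt-2, which encodes a methyltransferase of phosphatidylcholine synthesis, had 142 (86.4 in replicate 1 and 50.1 in replicate 2) at a summit 79 bp into its 5′ UTR on chromosome V, with 3 sites. The peak shared by cblc-1, the worm counterpart of a human cobalamin-processing gene, and ZK546.19 had 137 (97.4 and 51.9) and 2 sites. vig-1, which encodes an RNA-binding protein of the RNA-induced silencing complex, had 123 (77.9 and 39.3) in an intron. phdh-1, which encodes phosphoglycerate dehydrogenase, the entry enzyme of serine synthesis, had 119.6 (76.0 and 43.8). The peaks of dpy-14, pmt-2, cblc-1 and phdh-1 ranked among the 60 strongest of each replicate. sesn-1, the sestrin gene of stress and nutrient response, and the pair of vgln-1, which encodes the RNA-binding protein vigilin, and C08H9.16 were at 116 each. fzr-1, which encodes an activator of the anaphase-promoting complex, was at 115. enpl-1, which encodes the endoplasmic reticulum chaperone endoplasmin, was at 114, and the nuclear receptor gene nhr-119 at 110.2. A single peak of 109 lay between idhg-1, for a subunit of isocitrate dehydrogenase, and mlcd-1, for malonyl-CoA decarboxylase. noah-1, whose zona pellucida domain product forms part of the sheath around the embryo, was at 103, with 73.5 in replicate 1, 32.1 in replicate 2 and 3 sites. alg-2, which encodes an Argonaute of the microRNA pathway, was at 94.5, with CGTCTC and no GATA site. The remaining genes of the 25 strongest were F32H2.6 (108), C15C8.4 with C15C8.5 (105), adk-1 (99.9), nhr-168 (97.8), txdc-12.1 (97.3), Y77E11A.23 (95.5), Y65A5A.1 (95), W05B5.1 (94.5) and nhr-140 (92.5). fzr-1, C15C8.4 with C15C8.5, nhr-168 and ZK858.6 (87.9) were, after the elt-1 summit at 9619015, the strongest with neither a GATA site nor CGTCTC.

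Each promoter peak was looked up in the relaxed list of each replicate, which ranks 30000 peaks in replicate 1 and 26001 in replicate 2. A peak among the 1400 strongest of replicate 1 overlapped 386 of the 475 promoter peaks, one of replicate 2 overlapped 306, both held for 244 and neither for 27. Both held for 51.4% of promoter peaks and 54.7% of other autosomal peaks (odds ratio 0.876, adjusted exact p = 0.374). Among promoter peaks both held for 45.8% of those without a GATA site and 55.5% of those with one, and for 47.9% with 1 site, 64.9% with 2, 66.7% with 3 and 50% of the 14 with 4 to 6. Spearman's rho between the replicates' signals was 0.34 over 465 promoter peaks and 0.293 over 559 other autosomal peaks, a description over peaks that share the same libraries. The other 10 promoter peaks, at eat-16, egl-9, oatr-1, pqn-87, F18A11.2, T04B2.3, nhr-132, nhr-237, dhs-13 and the group of dnj-29, fld-1 and ndua-2, overlapped no relaxed peak of replicate 2, and their signals were 28.1 to 33.1. The widest gaps in rank were at T04C9.2, ranked 301 in replicate 2 but 22944 in replicate 1, and at the pair of sec-61.G and F32D8.13, ranked 633 in replicate 1 but 24691 in replicate 2. Large gaps with the higher rank in replicate 2 were also seen at Y110A2AL.4, gpdh-1, alh-6 and ctg-1, and with the higher rank in replicate 1 at Y47G6A.18, rps-11, mtre-1 and F52B11.2. Of these 10 peaks 6 held no GATA site, beside 203 of all 475 promoter peaks, and so few peaks do not show a difference.

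**Figure D3:**
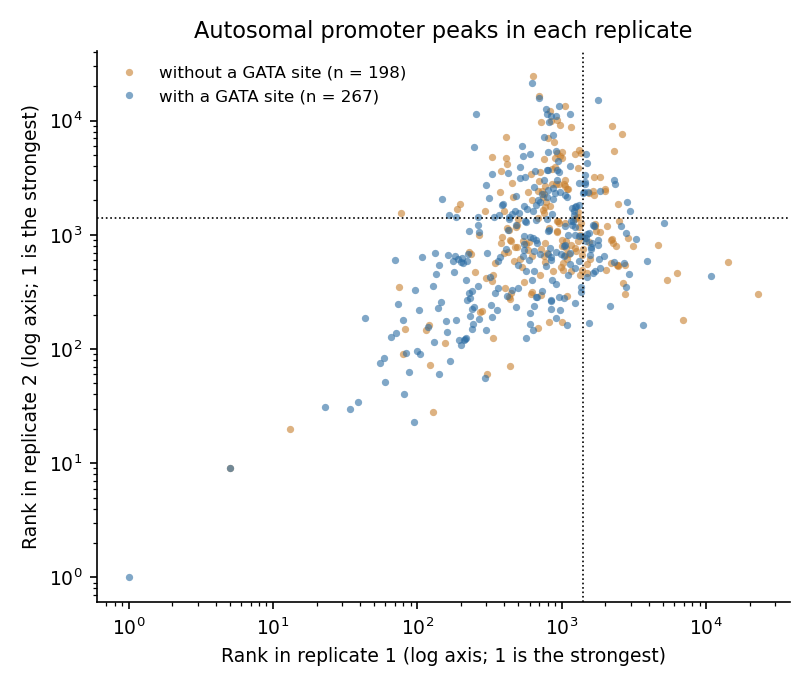
Rank of each autosomal promoter peak in replicate 1 and in replicate 2 (both axes log, 1 is the strongest), for the 465 peaks with a relaxed peak in both; orange, without a GATA site, blue, with a site. Dotted lines mark rank 1400: the peaks strong in both replicates lie to the lower left, and the elt-1 intron, ranked 1 in each, is the lowest point.

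Within the window that was used to choose the peaks, summits were most frequent just upstream of the nearest 5′ end. Taking the closest of all 5′ ends favours short distances, and no expected distribution was set beside these counts. Measured to the nearest 5′ end, 165 of the 475 (34.7%) lay in the 200 bp before it and 117 (24.6%) in the 200 bp before that, 44 (9.26%) lay downstream, and the median position was 233 bp upstream. The annotation at the summit was intergenic for 321 peaks, an intron for 101, a 5′ UTR for 28, coding sequence for 17 and a 3′ UTR for 8. Peaks without and with a GATA site had similar positions: 43.8% of those without (89 of 203) and 44.1% of those with a site (120 of 272) lay 200 bp or less from the 5′ end (odds ratio 0.989, adjusted exact p = 1). In steps of 200 bp from the farthest upstream to the 5′ end the share with a site was 66.7%, 53.8%, 61.5%, 53.0% and 54.5%, and it was 68.2% (30 of 44) downstream of the 5′ end. At the upstream edge of the window the summits of nhr-49, C05C8.7 and C12D8.9 lay 997, 988 and 986 bp upstream with signals of 70.3, 43.4 and 41.6, and mrps-28, natb-1 and B0353.1 fell outside at 1008, 1009 and 1031 bp with 37.5, 59.7 and 30.3. At the downstream edge vig-1, lin-42 and cogc-3 lay inside at 197, 196 and 190 bp with 123, 31.9 and 38.4, and asic-2, ZK484.6 and dre-1 outside at 206, 213 and 216 bp with 46.0, 28.1 and 31.8.

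**Figure D4:**
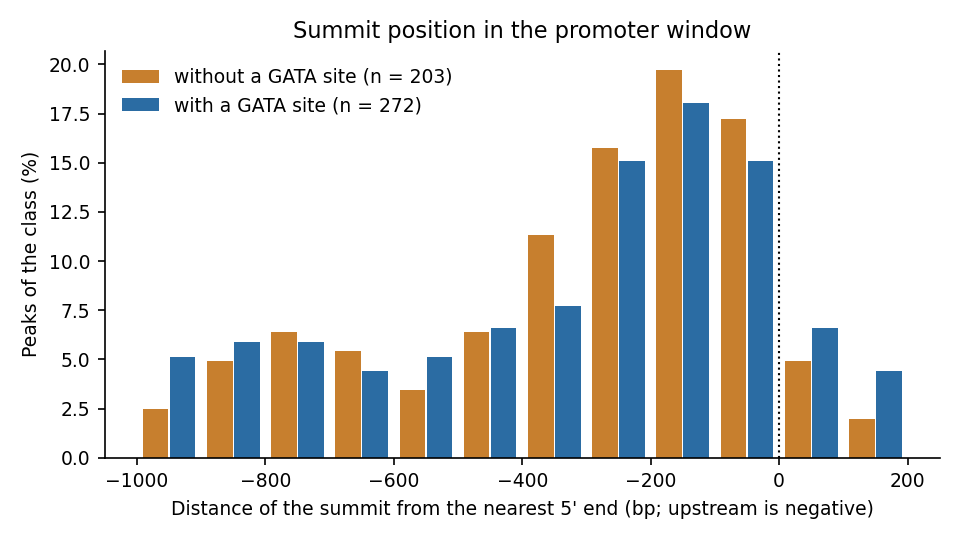
Position of the summit of the 475 autosomal promoter peaks relative to the nearest annotated 5′ end (bp, upstream negative, bins of 100 bp), as percent of the 203 peaks without a GATA site (orange) and the 272 with one (blue). Both classes are highest just before the 5′ end, and 43.8% and 44.1% lie 200 bp or less from it.

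Peaks without and with a GATA site differed in the arrangement of the genes around them. The promoter windows of 2 or more genes shared the summit for 60 of the 203 peaks without a GATA site (29.6%) and for 44 of the 272 with one (16.2%), an odds ratio of 2.17 (adjusted exact p = 0.00162). The direction was the same but the call was lost when the promoter was narrowed to 500 bp before and 100 bp after the 5′ end (1.85, adjusted exact p = 0.072) and among the 50% of peaks with the highest signal (2.09, adjusted exact p = 0.205). Put the other way, a site was found at 42.3% of the 104 peaks in windows of 2 or more genes and 61.5% of the 371 in the window of 1 gene. Of 90 peaks that lay upstream of genes on both strands, 34 held a site (37.8%), against 61.8% of the other 385. The 61.5% of the 371 peaks of 1 gene (Wilson interval 56.4 to 66.3%) stood beside 70.1% of the 304 other autosomal peaks that were intergenic (64.7 to 74.9%), a comparison without a test. CCGCCC lay at 24.0% of peaks in shared windows and 9.70% of those in the window of 1 gene. The median signal was 36.9 in shared windows and 39.6 in windows of 1 gene. Only 15 of the 475 peaks had a small RNA gene within 200 bp of the summit (9 a snoRNA, 4 an snRNA and 2 a tRNA gene), and 4 of these held a GATA site.

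By chromosome, peaks occupied 3.96% of the protein-coding genes of I, 3.51% of II, 3.79% of III, 2.93% of IV and 2.58% of V. The share of promoter peaks with a GATA site was 51.1% on I, 57.7% on II, 51.9% on III, 70.2% on IV and 56.0% on V, and that of other autosomal peaks was 73.9%, 72.4%, 69.7%, 63.7% and 70.2%. Promoter peaks were below the other peaks on I, II, III and V, and above them on IV. The middle 50% of the chromosomes by length held 297 of the 475 peaks (62.5%) and 55.7% of autosomal protein-coding genes.

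Occupied genes were then counted in 36 gene lists, each set beside the 3.25% of all autosomal genes. The lists were chosen with results of these data known and genes differ in the length and number of their windows, so the counts are descriptions without a test. In the 6 lists of the epidermis 28 of 282 genes were occupied (9.93%). Cuticle collagens had 13 of 146 (8.90%), with 11 in replicate 2 alone and 10 in replicate 1 alone, and 11 of their 13 peaks had a GATA site. After dpy-14, the strongest collagen peaks were at dpy-17 (92.4, with 50.2 in replicate 1 and 39.0 in replicate 2), col-107 (75.1) and col-121 (74.9). Of the genes for epidermal junctions and the apical matrix, 4 of 23 were occupied: noah-1, ifb-1 (71.1), an intermediate filament gene, sma-1 (59.6), for an apical spectrin, and jac-1 (42.3), for a p120 catenin of adherens junctions. Hedgehog-related genes had 3 of 49 (wrt-10 at 63.4, grl-10 at 51.6 and grl-7 at 30.7) and patched-related genes 3 of 25 (ptr-18 at 81.2, ptr-15 at 60.3 and ptr-2 at 33.3). Both families are linked to cuticle and moulting in the worm. The antimicrobial peptide genes of the epidermis had 3 of 21, with nlp-32 at 51.2 and nlp-31 and nlp-34 sharing a peak of 30.2, and 1 gene was occupied in replicate 2 alone and 1 among the 50% of peaks with the highest signal. Of 19 epidermal regulators, elt-1 and nhr-23, a nuclear receptor gene of moulting (55.5 and 44.5 at a pair of summits), were occupied, and elt-1 was the only occupied one of 7 autosomal GATA factor genes in the thresholded list, while 2 of the 7 were occupied in replicate 2 alone.

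In the whole thresholded list, genes used in most cells had a like share of occupied members, and few of their peaks held a GATA site. In 10 lists of such genes (ribosomal proteins, translation factors, tRNA synthetases, the proteasome, the V-ATPase, the respiratory chain with ATP synthase, splicing factors, nucleoporins, Rab GTPases and the secretory pathway) 42 of 399 were occupied (10.5%) through 40 peaks, and 5 of the 40 held a GATA site (12.5%, Wilson interval 5.46 to 26.1%). Histone genes were left out of this group, and with them 7 of 42 peaks held a site (16.7%, 8.32 to 30.6%). In the epidermal lists 25 of 33 peaks held one (75.8%, 59.0 to 87.2%). These groups of lists were put together after their values were seen, so no test is given. The like share was that of the whole list. Among the 50% of peaks with the highest signal, 8 ribosomal protein, 4 secretory pathway, 1 translation factor and 1 nucleoporin gene were occupied, and 0 in the other lists. The epidermal lists then kept 10 collagens, 4 junction and matrix genes, 2 regulators, 2 hedgehog-related, 2 patched-related and 1 antimicrobial peptide gene. The median signal was 34.7 for the 40 peaks of genes used in most cells and 55.5 for the 33 epidermal peaks, and 42.5% and 75.8% of them were among the 1400 strongest in both replicates. The window was shared by 2 or more genes for 65.0% of the peaks of genes used in most cells and 15.2% of the epidermal peaks, and the part of that in the difference was not tested. Ribosomal proteins had 14 of 80 genes occupied (17.5%), with 18 in replicate 2 alone and 12 in replicate 1 alone, and 1 of 13 peaks with a GATA site. The count was 8 when each summit was given only to its nearest 5′ end, and also 8 among the 50% of peaks with the highest signal. Their strongest peaks were at rpl-3 (82.9, with 70.2 in replicate 1 and 20.2 in replicate 2), rps-28 (70.9), rpl-15 (54.4) and rpl-35 (51.5), none with a site. Genes of the secretory pathway and protein folding in the endoplasmic reticulum had 5 of 51: dnj-20 (68.4), for a DnaJ chaperone, crt-1 (59.0), for calreticulin, dad-1 (53.0), for a subunit of oligosaccharyl transferase, fkb-5 (46.3) and sec-61.G (35.1), for a translocon subunit. No peak of these 5 held a GATA site, and 3 held CGTCTC.

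**Figure D5:**
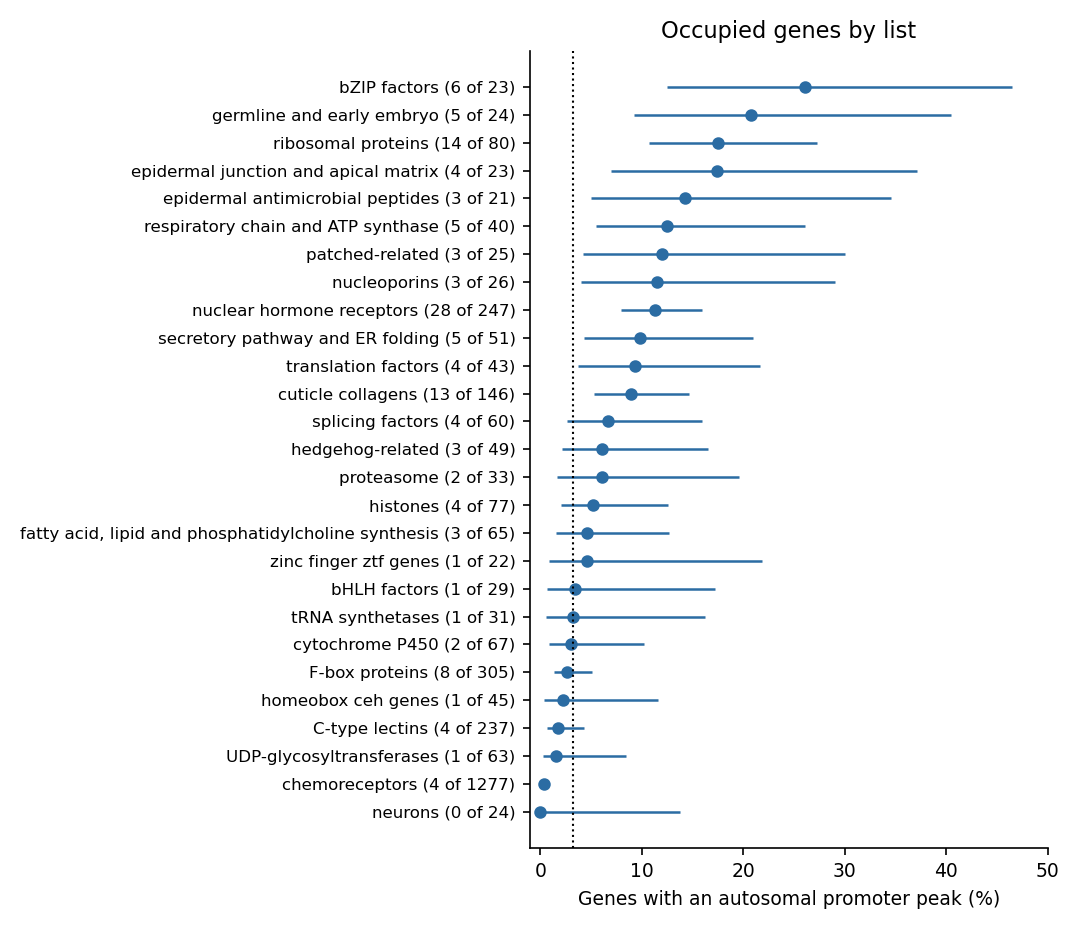
Share of genes with an autosomal promoter peak, in percent, for the 27 lists with 20 or more autosomal genes (occupied of all in brackets); points are shares, lines are 95% Wilson intervals over genes and the dotted line is the 3.25% of all autosomal protein-coding genes. The 12 lists from bZIP factors (26.1%) and germline and early embryo (20.8%) down to cuticle collagens (8.90%) lie to the right of the line with their whole interval, and chemoreceptors (0.313%) to its left. This is a description and not a test: the lists were chosen with results of these data known. The intervals also take genes as independent, although some genes of a list share a peak.

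The respiratory chain and ATP synthase had 5 of 40 occupied, with 0 of 5 peaks holding a site (cyc-1 at 33.5, cox-5B at 33.4, cox-6A at 31.9 and nuo-2 at 28.7), and 2 in replicate 2 alone against 6 in replicate 1 alone. Translation factors had 4 of 43 with 0 of 4 (eif-3.C at 48.0, erfa-3 at 35.9, clu-1 at 30.1 and iff-2 at 29.1). Splicing factors had 4 of 60 with 1 of 4 (prp-8 at 36.4, snr-4 at 34.4, rsp-6 at 33.9, prp-40 at 30.1). The proteasome had 2 of 33 (rpn-7 at 35.7 and rpn-3 at 30.8), nucleoporins 3 of 26 (npp-27 at 64.4, npp-6 at 33.6 and npp-8 at 27.9) and Rab GTPases 3 of 17 (rab-30 at 37.1, rab-5 at 30.6 and rab-18 at 28.9). tRNA synthetases had 1 of 31 (ears-2 at 30.3) and the V-ATPase 1 of 18 (vha-8 at 35.3). In replicate 2 alone 2 respiratory chain genes, 1 nucleoporin gene, 1 proteasome gene and 2 V-ATPase genes were occupied, and in replicate 1 alone 1 Rab gene, 2 V-ATPase genes and 0 tRNA synthetase genes. Among the 50% of peaks with the highest signal, the respiratory chain, splicing factor, proteasome, Rab, V-ATPase and tRNA synthetase lists each had 0 occupied genes. In that setting 265 of all 17242 autosomal genes were occupied, a share that lists this short could not have told from 0. Histones, with 4 of 77 through 2 peaks, had a GATA site at both, the stronger one at 87.7 in the windows of his-67, his-68 and alg-5 and the other at 31.5 between his-31 and his-32, and reads of such near-identical genes may not be placed with certainty. Genes of the germline and early embryo had 5 of 24 (20.8%, and 3 genes in either replicate alone), with a site at 1 of 5 peaks. Among them were the polarity genes par-3 (58.5) and par-2 (28.9) and the maternal regulators pie-1 (35.8) and spn-4 (29.1). The count of occupied genes was 1 among the 50% of peaks with the highest signal, and 3 with each summit given only to its nearest 5′ end.

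Among transcription factors, nuclear hormone receptors were occupied at 28 of 247 genes (11.3%, 7.96 to 15.9%), with 31 in replicate 2 alone and 28 in replicate 1 alone, and 18 of their 30 peaks held a GATA site. The strongest were nhr-119 (82.5 in replicate 1 and 27.6 in replicate 2), nhr-168, nhr-140 and nhr-175 (85.2, with 39.1 and 43.1). nhr-49, a regulator of fat metabolism, had a summit of 70.3 with a second of 27.8, and nhr-68, known for its part in propionate breakdown, had 43.7. bZIP factors had 6 of 23 (26.1%, and 3 genes among the 50% of peaks with the highest signal), the strongest being crh-1 (58.2), the worm CREB gene, crh-2 (56.7), zip-1 (40.5) and atf-7 (37.8). Homeobox ceh genes had 1 of 45 (ceh-20 at 31.7), bHLH factors 1 of 29 (hlh-30 at 30.9) and ztf zinc finger genes 1 of 22 (ztf-29 at 51.2). Of ceh genes 0 were occupied in replicate 1 alone, and of ztf genes 3 in replicate 2 alone. T-box factors had 0 of 18 and forkhead factors 0 of 11, which allow shares of up to 16.7% and 27.3%.

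Markers of other tissues had no promoter peak in the thresholded list, with 0 of 15 body wall muscle genes (a count that allows a share of up to 20%), 0 of 11 intestinal genes (up to 27.3%), 0 of 14 pharyngeal genes (up to 21.4%) and 0 of 24 neuronal genes (up to 12.5%). In replicate 1 alone 1 body wall muscle gene was occupied, and in replicate 2 alone 1 intestinal gene. With lists this short, a share equal to the 3.25% of all genes could not have been told from 0. Chemoreceptors were below it, with 4 of 1277 (0.313%, 0.122 to 0.803%), each with a GATA site: sre-1 had a signal of 53.1, srh-23 one of 39.2, sre-23 one of 33.4 and srh-217 one of 30.2. F-box proteins had 8 of 305 (2.62%), led by fbxc-19 (88.3), fbxb-57 (50.8), fbxb-96 (45.6) and fbxa-61 (42.2), and C-type lectins 4 of 237 (clec-196 at 90.3, clec-234 at 40.1, clec-53 at 30.9 and clec-126 at 27.9). Cytochrome P450 genes had 2 of 67 (cyp-13A2 at 37.9 and cyp-14A5 at 28.3), UDP-glycosyltransferases 1 of 63 (ugt-60 at 40.3), and lipid synthesis 3 of 65, with pmt-2, fasn-1 (42.0), the fatty acid synthase gene, and sams-3 (33.2), for S-adenosylmethionine synthetase. In replicate 2 alone the occupied genes were 3 F-box proteins, 2 C-type lectins, 2 chemoreceptors, 0 cytochrome P450 genes and 3 UDP-glycosyltransferases, and in replicate 1 alone 8, 3, 4, 1 and 1 of these lists. Chemoreceptors had 1 when each summit was given only to its nearest 5′ end. In all, 137 occupied genes were in a list and 423 in none.

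Of the 560 occupied genes, 23 had 2 or more summits in their windows. After elt-1, mthf-1, which encodes methylenetetrahydrofolate reductase of the folate cycle, had 3 on chromosome II. Its summit at 7776691 in the 5′ UTR had a signal of 43.5, with 21.4 in replicate 1 and 29.0 in replicate 2. The summits at 7776925 and 7777547, both in an intron, had 30.2 and 29.3, and each held 3 GATA sites. The first pair shared a relaxed peak in replicate 2, so they are not separate there.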

How the data were processed

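Peak lists of build ce11 were used as deposited by the authors, with their signal per peak, the offset of the summit and a −log10 q-value that was the same (3.53) for all 1400 thresholded peaks and was not used. Per the deposited text lists beside the peak files, relaxed lists were called per replicate against a shared control set, and the thresholded list was derived from both replicates by the irreproducible discovery rate (IDR), so its signal is a pooled value with no replicate error. Read depth is unknown, and the aligner, peak caller and IDR threshold are not given in the sources used here. A replicate's value at a peak is that of its strongest overlapping relaxed peak.

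Gene starts came from Ensembl release 115 (29326 5′ ends of protein-coding transcripts) and sequence from RefSeq WBcel235. With the 5′ ends of all transcripts of protein-coding genes the count was 476. Motifs were sought on both strands, and counts were compared with a two-sided Fisher's exact test at a threshold of 0.05, adjusted within each family; the 6-base test was tested on simulated windows. Members, lists, motifs and tests were chosen with earlier results of these data known, and 2 lists (chemoreceptors, collagens) were corrected for wrongly matched symbols afterwards. Genes were named by a rule: the 25 strongest peaks, up to 4 genes per list, the 5 strongest peaks per sequence class, genes with 3 or more summits, window edges and the 5 widest rank gaps in each direction; others were picked after their values were seen. An upper limit at 0 is 3 counts of the total. Tests ran in SciPy 1.17.1 and tables in pandas 2.3.3 and numpy 2.4.6 under Python 3.11.15, with figures from matplotlib 3.10.9.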

Additional observations from a re-analysis of the deposited data

How the results depend on the processing

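Of 75 alternatives to the main results, tests and plain counts together, 58 were unchanged. A test was unchanged if it kept direction and call. A count of peaks, 6-mers or occupied genes has neither, and was unchanged if it stayed within 1.5 times. No paired analysis was possible because the series has 1 group. Values are odds ratios unless they are counts. With the 50% of peaks with the highest signal, there were 230 promoter peaks and 265 occupied genes. The GATA share against other autosomal peaks was then 0.707 (adjusted exact p = 0.24), the highest against the lowest signal class 2.31 (0.252), shared windows 2.09 (0.205) and signal above the median 1.07, with 0 6-mers called; fewer peaks were tested, and the cause was not tested further. With the narrower window (500 bp upstream to 100 bp downstream) shared windows gave 1.85 (0.072), and 36 6-mers were called; with 50 bp around the summit 3 were, so the number of 17 depends on these settings. Near the 5′ end, without against with a GATA site, the ratio was 1.01 with merged peaks and 1.01 within 100 bp, on the other side of 1. Over the replicates alone the ranges were 0.597 to 0.672 for the GATA share against other autosomal peaks, 3.76 to 4.17 for the signal classes, 2.1 to 2.29 for shared windows, 0.832 to 1.12 for CGTCTC, 0.941 to 1.05 for signal, 1 to 1.31 for the position and 4 to 21 for 6-mers (4 without replicate 1); the cause was not tested. Of 216 list counts under an alternative, 164 stayed within 1.5 times. Unknown depth limits all of these.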

Other observations

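By signal, the peaks of pmt-2, cblc-1 (shared with ZK546.19) and phdh-1 ranked 5, 6 and 8 among the promoter peaks. These genes act in the use of methyl groups, the preparation of cobalamin and the synthesis of serine. Related genes ranked lower, with metr-1 at 43 and the strongest peak of the folate gene mthf-1 at 179. A list of 31 genes of one-carbon and methionine metabolism was therefore drawn up after these values were seen, and its count is a description with no test. Of its 26 autosomal genes, 10 were occupied (38.5%, beside 3.25% of all autosomal genes), and all 12 of their peaks held a GATA site, beside 57.3% of all promoter peaks. The genes whose peaks prompted the list, pmt-2, cblc-1, phdh-1, metr-1 and mthf-1, are counted among the 10. They raised the 38.5% in advance, so its distance from 3.25% is no support for the group. Of the 12 peaks, 3 belonged to mthf-1 alone. With each replicate alone 10 of the 26 were occupied in replicate 1 and 8 in replicate 2.

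The 16 genes with no promoter peak were cbs-2, cth-1, cth-2, dhfr-1, folt-1, gcst-1, gldc-1, mce-1, mel-32, mmaa-1, mmab-1, mmcm-1, pmt-1, sams-4, sams-5 and tyms-1. In serine synthesis the occupied genes were phdh-1 (signal 119.6) and F26H9.5 (35.5, with 21.2 in replicate 1 and 12.6 in replicate 2). mthf-1, which makes the folate form that methionine synthase uses, had 3 peaks of 43.5, 30.2 and 29.3. metr-1, the methionine synthase gene, had 77.8 at a summit 577 bp upstream of its 5′ end, with 45.3 in replicate 1 and 32.9 in replicate 2. mtrr-1, which encodes methionine synthase reductase, had 31.5, with 24.4 in replicate 1 and 4.01 in replicate 2, where it ranked 10897. cblc-1, which prepares the cobalamin cofactor, had 137. sams-3, for S-adenosylmethionine synthetase, had 33.2, pmt-2, which spends methyl groups on phosphatidylcholine, had 142, and ahcy-1, for adenosylhomocysteinase, had 43.9, with 38.5 in replicate 1 and 15.1 in replicate 2. alh-3, for a formyltetrahydrofolate dehydrogenase, had 38.9 (27.9 and 9.94). The window was shared with another gene for 2 of the 12 peaks, those of alh-3 and cblc-1. For the alh-3 peak the nearest 5′ end was that of mogs-1, 105 bp from the summit. For the cblc-1 peak it was that of ZK546.19, 78 bp from the summit. With each summit given only to its nearest 5′ end, alh-3 and cblc-1 would not be counted as occupied. Expression was not measured here.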
